A study of Mus musculus with 6 samples.

Results

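Adenosine and cyclic AMP (cAMP) restrain T cells through a short signalling route, and 10 of its genes are described here in mouse T helper 9 (Th9) cultures, the IL-9-producing type of helper T cell, grown with or without sphingosylphosphorylcholine (SPC), a lysosphingolipid. The genes are Adora2a, Adora2b, Nt5e, Entpd1, Ada, Crem, Creb1, Pde3b, Pde4b and Pde4d, all 10 found by symbol among the 23183 symbols of each count file. They were chosen by pathway from results of this same comparison, among them the difference in Crem between SPC and control. Counts, intervals and adjusted p-values below therefore describe these genes and place them among all tested genes, and they are not independent support.

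All 6 cultures started from spleen naive CD4+ T cells of C57BL/6N mice (genotype Wild-type) and ran for 3 days. They were stimulated through plate-bound anti-CD3e and soluble anti-CD28, each at 1 µg/ml. All also received 10 ng/ml of IL-4, 2 ng/ml of TGF-β1 and an anti-IFN-γ antibody at 10 µg/ml. The 3 control cultures had no SPC and the 3 SPC cultures had 30 µM of the d18:1 form. The series text names 3 independent experiments, and the titles number the libraries 1 to 3 in each group without saying that a number is an experiment, which is how numbers are read here. The p-values measure the spread between these libraries. Whether mice were pooled for a culture is not given in the sources used here.

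As background, extracellular ATP is cut by the ectoenzymes CD39 (Entpd1) and CD73 (Nt5e) to adenosine, which adenosine deaminase (Ada) removes. Adenosine binds the adenosine 2A and 2B receptors (Adora2a, Adora2b), which couple to the stimulatory G protein and raise cAMP through adenylyl cyclases. cAMP activates protein kinase A, which phosphorylates the transcription factors CREB and CREM (Creb1, Crem), and phosphodiesterases (Pde3b, Pde4b, Pde4d) break cAMP down. In T cells this route is known for damping receptor signalling and cytokine production.

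Library totals lay between 22002050 and 33049997 counts, and the 10 genes together took between 0.0315% and 0.0374% of them. Il9, which defines the culture, stood at 522 to 559 counts per 1000000 counts (CPM) in control and at 981 to 1412 CPM under SPC. Summed over 6 T cell markers, all with counts, control libraries had 1343 to 1411 CPM and SPC libraries 1400 to 1547 CPM. Cd5 alone of them stood apart, higher in every SPC library (203 to 217 and 263 to 277 CPM). Summed B cell markers (4.55 to 6.46 CPM in control, 5.17 to 6.39 under SPC, Ms4a1 at 0) and macrophage markers (1.95 to 2.27 and 1.72 to 2.30 CPM, Fcgr1, C1qa and C1qb at 0) overlapped between the groups. Within these sums, Cd79b (3.22 to 3.41 and 3.60 to 4.59 CPM) and Cd68 (1.09 to 1.47 and 1.53 to 2.09 CPM) were higher in every SPC library. Adgre1 was lower in every SPC library (0.41 to 0.82 and 0.15 to 0.22 CPM). The sum of 6 dendritic cell markers did not overlap (2.63 to 3.68 and 4.16 to 6.35 CPM). Zbtb46 alone of them stood apart (2.43 to 3.22 and 3.58 to 5.78 CPM), while Flt3, Itgax, Xcr1 and Siglech overlapped and Clec9a was at 0. The sum of 4 NK cell markers did not overlap either (2.00 to 2.55 and 1.40 to 1.70 CPM). Eomes alone of them stood apart (2.00 to 2.45 and 1.34 to 1.65 CPM), while Klrb1c and Klra8 overlapped and Ncr1 was at 0. Their part in the differences below was not tested. In bulk RNA, fewer cells of a type and less RNA per cell cannot be told apart.

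Of the 10 genes, all of which passed the filter on low counts, 3 were higher under SPC in every library (Adora2a, Nt5e, Pde4b), 3 were lower in every library (Crem, Pde4d, Adora2b), and 4 overlapped between the groups (Entpd1, Ada, Creb1, Pde3b). Among all 12226 tested genes, 8.67% were higher and 7.8% lower in every SPC library than in every control library. In the edgeR test with group as the single term, Adora2a was the 1 gene of the 10 called at an adjusted p under 0.05, beside 0.483% of all tested genes. The numbered libraries of both groups deviated together, so the same test was also run with the number as a block (the blocked test). It called 6 of the 10, beside 7.08% of all tested genes: the 3 higher ones (4.02% of all tested genes were called higher) and the 3 lower ones (3.07% were called lower). The median log2 fold change (SPC over control) of the 10 genes was -0.0043 and that of all tested genes 0.0019.

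**Figure D1:**
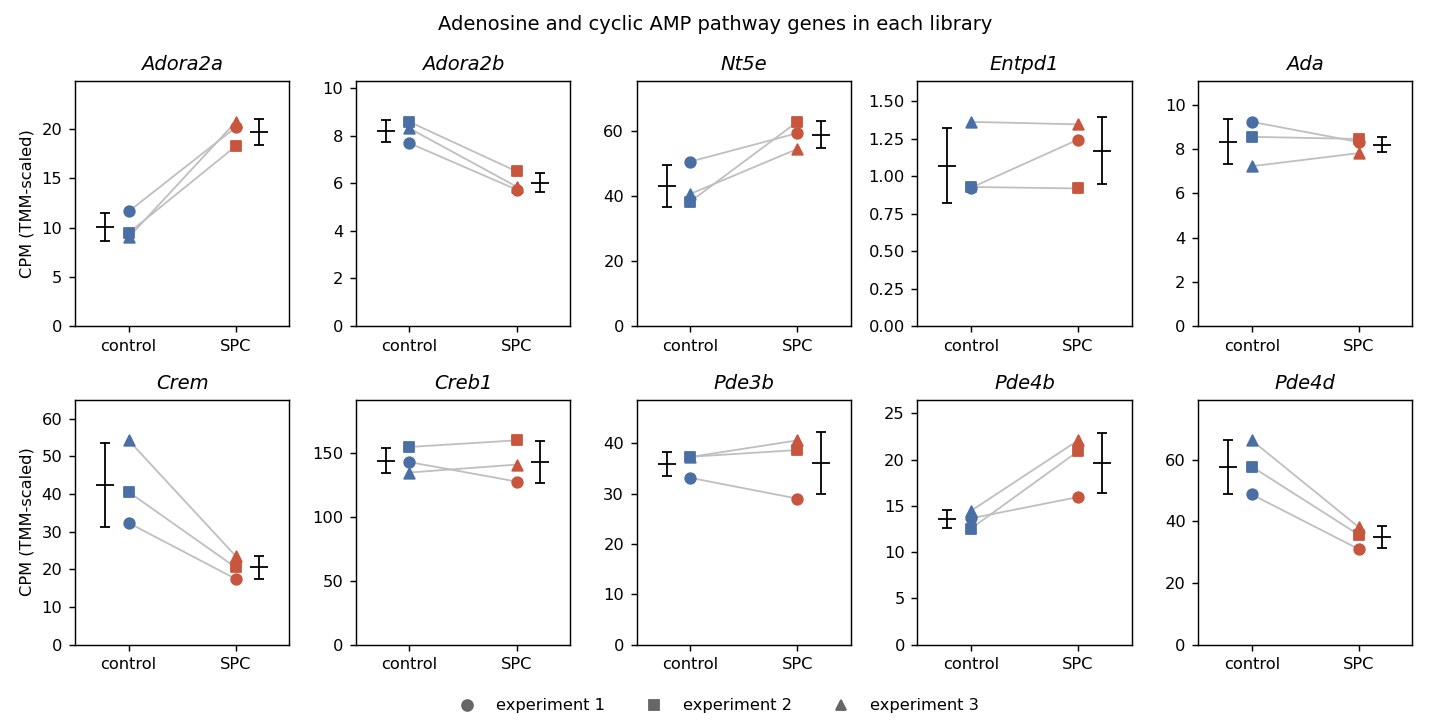
Normalised counts (CPM, linear axes from 0) of the 10 genes in 3 control and 3 SPC libraries. Symbols give the experiment number, grey lines join libraries of 1 number, and bars give the mean ± SD of each group (n = 3). The 6 panels Adora2a, Adora2b, Nt5e, Crem, Pde4b and Pde4d show groups that do not overlap.

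The adenosine receptors differed in opposite directions, Adora2a in both tests and Adora2b in the blocked test alone. Adora2a encodes the adenosine 2A receptor, the main adenosine receptor of T cells. It stood at 11.6, 9.45 and 9.0 CPM in the control libraries 1, 2 and 3 and at 20.2, 18.3 and 20.7 CPM in the SPC libraries. The lowest SPC library was well above the highest control library. From 10.0 ± 1.41 to 19.7 ± 1.29 CPM (SD, n = 3 each), Adora2a rose 1.97-fold (log2 fold change 0.97 ± 0.12 SE, 95% interval 0.70 to 1.25, adjusted p = 0.0200). It held place 15 by p among the 12226 tested genes, and the within-experiment differences were 0.79, 0.95 and 1.2 on the log2 scale. With the block the adjusted p was 0.000275. Unblocked, it no longer passed when control library 2 was left out (log2 fold change 0.93, adjusted p = 0.138) or when SPC library 2 was left out (1.02, adjusted p = 0.119).

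Adora2b, the adenosine 2B receptor gene, which has a lower affinity for adenosine, had 7.70, 8.59 and 8.32 CPM in control and 5.74, 6.51 and 5.87 CPM under SPC. All SPC libraries were below all control libraries, and the within-experiment differences of -0.42, -0.40 and -0.50 on the log2 scale lay close together. The log2 fold change was -0.44 ± 0.12 (adjusted p = 0.210 unblocked, 0.0354 blocked). The blocked call was lost without the libraries numbered 2 (adjusted p = 0.123) and without those numbered 3 (0.132). Relative to Adora2b, Adora2a had a CPM ratio of 1.51, 1.10 and 1.08 in the control libraries and of 3.51, 2.81 and 3.53 in the SPC libraries. These ratios are not scaled to gene length. In CPM per kilobase of exon, Adora2b was above Adora2a in control (means 4.45 and 3.28) and below it under SPC (3.27 and 6.44). Of the other adenosine receptors, Adora1 had no count in any of the 6 libraries, where 3 counts would be 0.0911 to 0.136 CPM, and Adora3 had 0 to 8 counts. Neither could be tested.

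Among the enzymes that make and remove adenosine, Nt5e alone of the 3 was called, in the blocked test. Nt5e, which encodes CD73, the enzyme that turns AMP into adenosine, stood at 50.6, 38.3 and 40.6 CPM in control and at 59.4, 62.8 and 54.5 CPM under SPC. The groups did not overlap, but control library 1 came close to the lowest SPC library. The log2 fold change was 0.45 ± 0.11 (adjusted p = 0.163 unblocked, 0.0106 blocked), with 0.23, 0.71 and 0.42 in the 3 experiments. Without the libraries numbered 2 the blocked adjusted p was 0.0506.

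Entpd1, which encodes CD39, was scarce. Its 24 to 41 counts per library gave 0.92, 0.93 and 1.36 CPM in control and 1.25, 0.92 and 1.35 CPM under SPC. The groups overlapped, and the 95% interval of the fold change ran from 0.709 to 1.72, so changes within that range could not be told from none in these libraries. Ada, the deaminase gene, had 9.24, 8.56 and 7.23 CPM in control and 8.32, 8.46 and 7.82 CPM under SPC. The groups overlapped (log2 fold change -0.03 ± 0.13, 95% interval -0.32 to 0.27, adjusted p = 0.971). Nt5e, Adora2a and Entpd1 are also genes of regulatory T cells. The 4 markers of those cells went both ways in the blocked test, 2 higher and 2 lower. Foxp3, their defining factor, had 30.5 to 35.1 CPM in control and 44.1 to 61.6 CPM under SPC (adjusted p = 0.0577 unblocked, 0.000868 blocked). Ikzf2, the gene of the factor Helios, had 22.1 to 24.0 CPM in control and 26.2 to 35.3 CPM under SPC (adjusted p = 0.201 unblocked, 0.0103 blocked). Ctla4, an inhibitory receptor gene, was lower, at 286 to 612 CPM in control and 125 to 262 CPM under SPC (-1.22 ± 0.31, adjusted p = 0.168 unblocked, 5.03e-07 blocked). Il2ra, a chain of the IL-2 receptor, overlapped between the groups, with 2691 to 2953 CPM in control and 2012 to 2701 CPM under SPC (adjusted p = 0.531 unblocked, 0.0344 blocked). Summed, the 4 had 3034 to 3623 CPM in control and 2213 to 3051 CPM under SPC. Most of this sum is Il2ra, so it does not show the direction of Foxp3 and Ikzf2. The part of such cells in the values of Nt5e, Adora2a and Entpd1 was not tested.

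Of the 6 tested genes for hydrolysis of extracellular nucleotides none was called in the fit without the block, and with it 2 were higher, Nt5e and Cd38 (median log2 fold change 0.01). Cd38, whose NAD-cleaving enzyme feeds a side route to adenosine, had 17.9 to 21.4 CPM in control and 22.7 to 24.7 CPM under SPC (0.31 ± 0.10, adjusted p = 0.281 unblocked, 0.0365 blocked). None of the 16 tested genes for adenosine removal and transport was called in either fit (median 0.04). Slc29a1, the main equilibrative nucleoside transporter, had 88.0 to 114 CPM in control and 99.0 to 126 CPM under SPC (0.14 ± 0.12, adjusted p = 0.784). Nor was any of the 7 tested genes with P2rx and P2ry symbols, listed here as ATP and nucleotide receptors, called. Their median of 0.31 was the highest of the 13 pathway lists. P2rx7, the ATP-gated channel of T cells, had 16.5 ± 2.30 CPM in control and 20.4 ± 1.60 CPM under SPC (adjusted p = 0.411 unblocked, 0.0859 blocked).

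**Figure D2:**
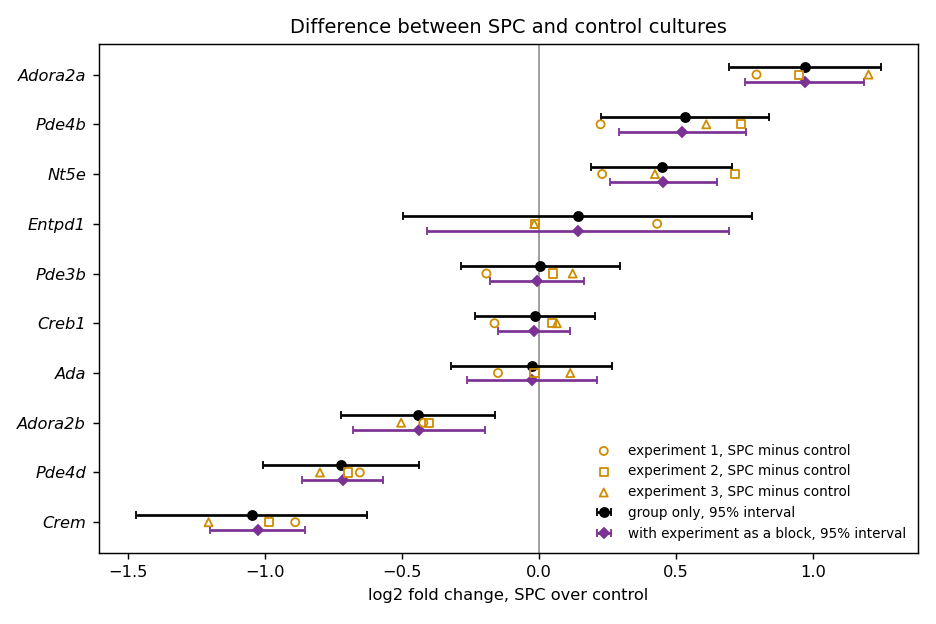
Log2 fold change (SPC over control, x axis) of each of the 10 genes. Black points are the fit with group alone and purple diamonds the fit with the experiment number as a block, each with its 95% interval, and open symbols are the differences within experiments 1, 2 and 3. Adora2a, Pde4b and Nt5e lie to the right of 0 and Adora2b, Pde4d and Crem to the left in all 3 experiments.

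Of the transcription factors, Crem was called lower in the blocked test and Creb1 in neither. Crem encodes CREM activators and, from an internal promoter, the inducible repressor ICER, and the counts pool all of its transcripts (39 are annotated). Crem (chromosome 18, 3266048 to 3337748, minus strand, GRCm38, the assembly behind mm10) stood at 32.3, 40.5 and 54.3 CPM in control and at 17.4, 20.5 and 23.5 CPM under SPC. In both groups library 3 was the highest and library 1 the lowest, and every SPC library was below every control library. The mean went from 42.4 ± 11.1 to 20.5 ± 3.04 CPM, a ratio of 0.483 (log2 fold change -1.05 ± 0.19, adjusted p = 0.0538). Within experiments the differences were -0.89, -0.98 and -1.21 on the log2 scale, and with the block Crem fell by 1.03 ± 0.08 (adjusted p = 4.04e-05). Exons of Gm6225 on the opposite strand cover 8.01% of the exonic bases of Crem.

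Creb1 encodes CREB, the constitutive partner of CREM. It had 143, 155 and 135 CPM in control and 128, 160 and 141 CPM under SPC. The groups overlapped, and the log2 fold change was -0.01 ± 0.10 (95% interval -0.23 to 0.21, adjusted p = 0.980). The CPM ratio of Crem to Creb1 was 0.226, 0.262 and 0.403 in the control libraries and 0.137, 0.128 and 0.167 in the SPC libraries.

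Of the PDE4 phosphodiesterases, which hydrolyse cAMP and set its level in T cells, Pde4d and Pde4b were called in opposite directions in the blocked test. Pde4a (log2 fold change -0.03, adjusted p = 0.952 blocked) and Pde4c (-0.36, adjusted p = 0.267 blocked) were called in neither test. Pde4d stood at 48.8, 57.8 and 66.4 CPM in control and at 31.0, 35.6 and 38.1 CPM under SPC. As with Crem, library 3 was the highest and library 1 the lowest of each group, with no overlap between the groups. The log2 fold change was -0.72 ± 0.13 (adjusted p = 0.0514), with -0.65, -0.70 and -0.80 in the 3 experiments, and with the block Pde4d fell by 0.72 ± 0.07 (adjusted p = 0.000148). Pde4b had 13.6, 12.5 and 14.5 CPM in control and 15.9, 20.9 and 22.1 CPM under SPC. SPC library 1 was little above the control libraries and the other SPC libraries were well above them. The log2 fold change was 0.53 ± 0.14 (adjusted p = 0.161 unblocked, 0.0125 blocked), with 0.22, 0.74 and 0.61 in the 3 experiments.

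The CPM ratio of Pde4b to Pde4d was 0.280, 0.217 and 0.218 in the control libraries and 0.515, 0.586 and 0.579 in the SPC libraries. Pde3b, the phosphodiesterase that cyclic GMP inhibits, had 33.1, 37.3 and 37.3 CPM in control and 29.0, 38.7 and 40.6 CPM under SPC. The groups overlapped (log2 fold change 0.00 ± 0.13, 95% interval -0.29 to 0.30, adjusted p = 0.993).

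Per length, in CPM per kilobase of exon union (RPKM), the summed level of the 16 cAMP phosphodiesterase genes was 42.0, 44.5 and 47.0 in control and 36.8, 42.5 and 46.3 under SPC, with overlap. Pde7a made up 62.0% to 65.5% of this sum in control and 65.5% to 66.4% under SPC. Pde4d made up 9.66% to 11.8% in control and 6.86% to 7.0% under SPC, and Pde4b 2.67% to 3.07% and 4.10% to 4.66%. Of the 12 tested genes of the list none was called without the block, and with it Pde4b was higher and Pde4d and Pde1a lower (median log2 fold change -0.15). Pde1a, a calcium-activated phosphodiesterase, had 3.25, 3.38 and 3.32 CPM in control and 1.85, 1.26 and 1.43 CPM under SPC (-1.12 ± 0.21, adjusted p = 0.0597 unblocked, 0.00582 blocked).

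**Figure D3:**
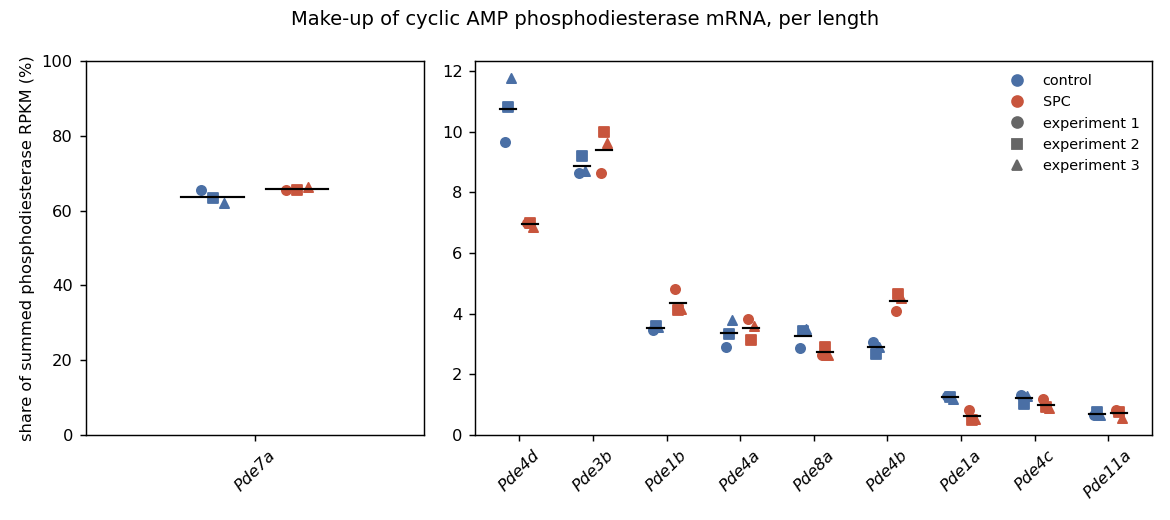
Share of each cAMP phosphodiesterase gene in the summed RPKM of the 16 genes (%, linear axes from 0, the left panel on its own scale), for genes with a mean share of at least 0.5% in control. Blue is control and red SPC, symbols give the experiment number, and bars give the means. Lengths are those of the exon union, and another choice of length would change the shares. On this length Pde7a holds the largest share in every library, Pde4d is lower and Pde4b higher in all SPC libraries.

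PDE4 genes make long and short proteins from separate promoters, and counts per gene do not tell these apart. Pde4b lies on chromosome 4 (102087543 to 102607259, plus strand) with 13 annotated transcripts, and Pde4d on chromosome 13 (108449948 to 109953461, plus strand) with 20. The RefSeq promoter table (GRCm38.p6) gave 11 windows, 250 bases before to 50 after a start, for 7 of the 10 genes, and held none for Adora2a, Crem and Pde3b. The cAMP response element TGACGTCA, which CREB and CREM bind, was in none of the 11 windows and in 1.79% of all 32851 windows. Its shorter form TGACG, on either strand (also counted inside the full element), was in 3 of the 11, 2 of Entpd1 and 1 of Pde4b, and in 20.8% of all windows. These are letter matches in these windows alone. The 150 bases before the start are shown for an Adora2b start and for 2 separate starts within Pde4b, the ones of genes called with the block that overlap no annotated exon, 5′ to 3′ on the plus strand, with no capitals since none holds a match.
Adora2b, chr11:62248834-62248983: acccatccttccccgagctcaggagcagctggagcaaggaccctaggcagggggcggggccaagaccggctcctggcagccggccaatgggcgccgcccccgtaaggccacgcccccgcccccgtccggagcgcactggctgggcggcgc
Pde4b, chr4:102569910-102570059: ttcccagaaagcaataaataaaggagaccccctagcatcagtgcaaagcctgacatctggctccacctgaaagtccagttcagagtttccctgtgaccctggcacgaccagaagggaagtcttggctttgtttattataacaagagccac
Pde4b, chr4:102587408-102587557: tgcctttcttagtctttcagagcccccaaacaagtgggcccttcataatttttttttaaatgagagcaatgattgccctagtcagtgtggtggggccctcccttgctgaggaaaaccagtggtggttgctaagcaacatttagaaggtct

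Levels of different genes were ordered per length, unlike the CPM ratios above. In control the order by mean RPKM was Creb1 (10.5 ± 0.73), Crem (7.19 ± 1.88), Nt5e (5.02 ± 0.76), Pde4d (4.8 ± 0.73), Adora2b (4.45 ± 0.25), Ada (4.17 ± 0.51), Pde3b (3.94 ± 0.26), Adora2a (3.28 ± 0.46), Pde4b (1.28 ± 0.09) and Entpd1 (0.19 ± 0.05). Creb1 stood apart from Crem, and Pde4b and Entpd1 from the gene above each, while neighbours from Crem to Adora2a overlapped. With SPC the order was Creb1 (10.4 ± 1.18), Nt5e (6.85 ± 0.49), Adora2a (6.44 ± 0.42), Ada (4.10 ± 0.17), Pde3b (3.96 ± 0.68), Crem (3.47 ± 0.52), Adora2b (3.27 ± 0.22), Pde4d (2.91 ± 0.30), Pde4b (1.86 ± 0.31) and Entpd1 (0.21 ± 0.04). Adora2a thus went from place 8 to place 3 and Crem from place 2 to place 6. Divided by the longest transcript instead, Adora2a went from place 8 to place 4 and Crem from place 2 to place 5. Pde4d, at place 4 in control and place 8 with SPC by exon union, was then at place 3 in both groups. Its place thus depended on the length used.

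Receptors other than those for adenosine that raise cAMP through the same G protein were called in both directions in the blocked test. Of the 11 tested genes of this list, Gpr65 was called lower without the block, and with it 2 were higher and 2 lower (median log2 fold change 0.04). Ptger4, the EP4 receptor for prostaglandin E2, stood at 138, 132 and 112 CPM in control and at 173, 202 and 187 CPM under SPC. The groups did not overlap (0.56 ± 0.10, adjusted p = 0.0528 unblocked, 0.00126 blocked). Ptger2, the EP2 receptor for the same prostaglandin, had 11.8, 10.5 and 10.3 CPM in control and 16.6, 13.9 and 15.6 CPM under SPC (0.50 ± 0.11, adjusted p = 0.106 unblocked, 0.00708 blocked). Ptgir, the prostacyclin receptor, had 24.0, 25.7 and 26.3 CPM in control and 17.2, 21 and 21.2 CPM under SPC (-0.36 ± 0.10, adjusted p = 0.232 unblocked, 0.0171 blocked). Gpr65, a proton-sensing receptor, had 14.8, 19.5 and 23.7 CPM in control and 5.68, 5.97 and 7.61 CPM under SPC (adjusted p = 0.0164).

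Between receptor and transcription factor, and apart from the phosphodiesterases above, 3 genes were called in the blocked test. They come from lists of 4, 6, 8, 13 and 8 tested genes, and 7.08% of all tested genes were called in that test. None of the 4 tested alpha subunits of G proteins acting on cyclases was called in either fit, and all had log2 fold changes between -0.03 and 0.01. Gnas, the stimulatory subunit, had 640, 645 and 679 CPM in control and 587, 683 and 701 CPM under SPC. Among 6 tested genes of the adenylyl cyclase list, Adcy3 was called higher with the block (18.8, 20.2 and 18.7 CPM against 23.0, 24.8 and 24.2 CPM, log2 fold change 0.32 ± 0.08, adjusted p = 0.174 unblocked, 0.0256 blocked). Among 8 tested protein kinase A subunits and inhibitors, Pkib, an inhibitor gene, was called lower with the block (-0.32 ± 0.15, adjusted p = 0.531 unblocked, 0.0330 blocked). Prkaca, a catalytic subunit, had 95.6 ± 3.66 CPM in control and 86.0 ± 2.69 CPM under SPC (-0.15 ± 0.07, adjusted p = 0.490). None of the 13 tested A-kinase anchoring protein genes was called in either fit (median -0.02). Of 8 tested genes of Epac exchange factors and Rap proteins, the cAMP route beside protein kinase A, Rap1b was called lower with the block (-0.22 ± 0.07, adjusted p = 0.250 unblocked, 0.0249 blocked).

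In the list of CREB family factors, coactivators and SIK kinases (15 tested, median -0.04), the block called 1 gene higher and 4 lower, Crem among them. Sik2 and Sik1 encode kinases that protein kinase A inhibits and that hold the coactivators of CREB in the cytoplasm. Sik2 stood at 44.1, 47.9 and 41.5 CPM in control and at 23.9, 33.8 and 31.1 CPM under SPC, with no overlap (-0.59 ± 0.13, adjusted p = 0.0948 unblocked, 0.00268 blocked). Sik1 had 46.4, 44.2 and 54.3 CPM in control and 38.0, 35.4 and 38.1 CPM under SPC (-0.38 ± 0.09, adjusted p = 0.158 unblocked, 0.0105 blocked). Crtc2, one of these coactivators, had 63.2 ± 2.18 CPM in control and 74.2 ± 4.38 CPM under SPC (0.23 ± 0.07, adjusted p = 0.286 unblocked, 0.0464 blocked). Creb3l2, a factor of the same family anchored in the endoplasmic reticulum, overlapped between the groups (-0.50 ± 0.24, adjusted p = 0.552 unblocked, 0.00814 blocked).

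Among 21 tested genes known to respond to CREB, 8 had a log2 fold change above 0 (median -0.14), none was called without the block, and with it 2 were higher, Pde4b and Rgs2, and 6 lower. The lower ones were Crem, Pde4d, Sik1, Nfil3, Nr4a3 and Il10. Crem, Pde4d and Pde4b are among the 10 genes chosen from this same comparison. Crem and Sik1 were also counted in the list of CREB family factors. Nr4a3, an orphan nuclear receptor gene, stood at 392, 441 and 453 CPM in control and at 301, 372 and 356 CPM under SPC, with no overlap (-0.32 ± 0.10, adjusted p = 0.241 unblocked, 0.00292 blocked). Its relative Nr4a1 overlapped between the groups (-0.16 ± 0.08, adjusted p = 0.591). Rgs2, a regulator of G protein signalling, had 14.5, 10.4 and 8.27 CPM in control and 25.3, 20.9 and 11.7 CPM under SPC. Its groups overlapped, since SPC library 3 was below control library 1 (0.80 ± 0.28, adjusted p = 0.351 unblocked, 0.00125 blocked). Il10, an anti-inflammatory cytokine gene, had 3.04 to 3.95 CPM in control and 1.23 to 1.67 CPM under SPC (adjusted p = 0.0514 unblocked, 0.00389 blocked). Over all 13 lists, 115 tested genes were not among the 10. Without the block 1 of them was called, Gpr65, and with it 6 were higher and 11 lower, 14.8% in all. Over all tested genes the shares were 0.483% without the block and 7.08% with it (4.02% higher, 3.07% lower). The lists, like the 10 genes, were chosen with earlier results of these data known. Their shares therefore describe the lists and are not independent support. The rule for naming list genes gave 57, and those called in neither test had log2 fold changes from -0.84 to 0.89.

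**Figure D4:**
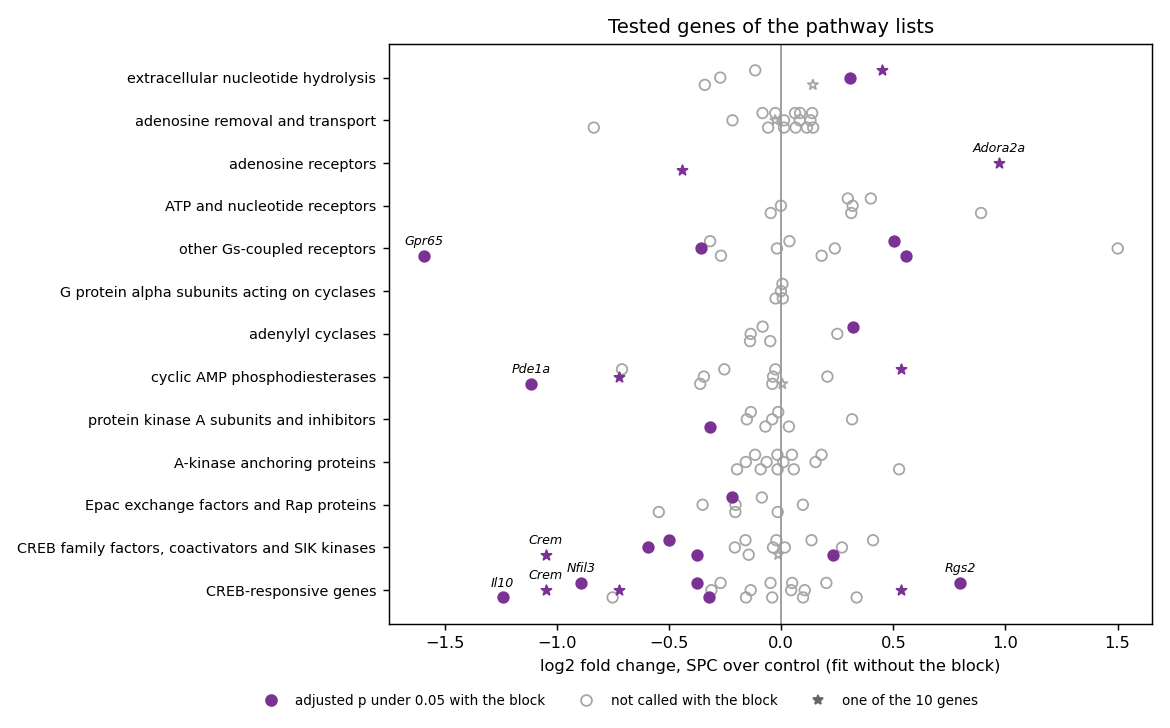
Log2 fold change (SPC over control, fit without the block, x axis) of every tested gene of the 13 pathway lists. Filled purple symbols were called in the fit with the block, open grey ones were not, and stars are the 10 genes. Called genes lie on both sides of 0, with Adora2a as the highest and Gpr65 as the lowest of them.

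The profile of Crem over the 6 libraries was compared with those of 9157 other genes averaging 5 CPM or more, by the root mean square difference of log2 CPM centred on the mean of each gene. The nearest were Nfil3 (0.09), a basic leucine zipper repressor, Bsn (0.14), Tigit (0.15), a co-inhibitory receptor, Itih5 (0.15) and Lif (0.16), a cytokine of the IL-6 family. Nfil3 stood at 63.3, 75 and 100 CPM in control and at 34.5, 41.4 and 52.5 CPM under SPC. It shared with Crem the highest value in library 3 and the lowest in library 1 of each group. Of the 10 genes, Pde4d came closest to Crem (0.18, place 13 of those compared), and Adora2b followed at place 146 (0.37).

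**Figure D5:**
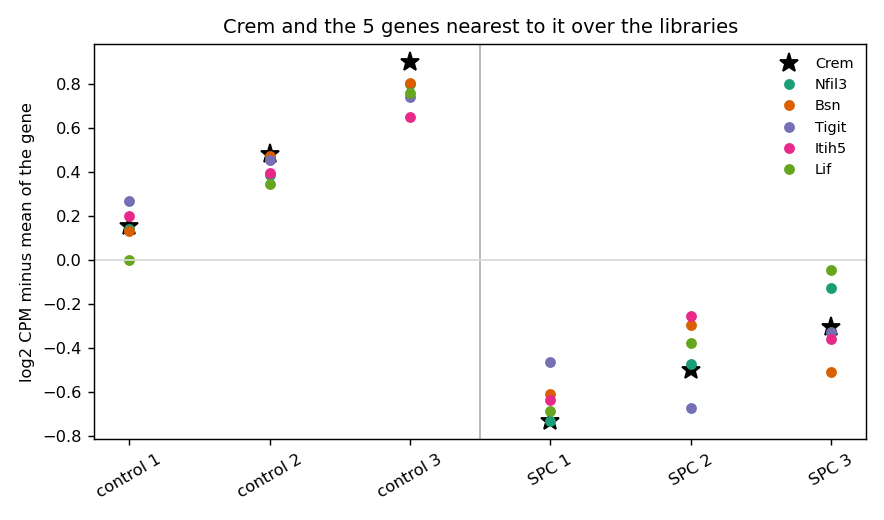
Log2 CPM minus the mean of the gene (y axis) in each of the 6 libraries (x axis) for Crem (stars) and the 5 genes nearest to it. All 6 genes are higher in every control library than in any SPC library, with the highest value in control library 3.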

How the data were processed

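Sequencing libraries came from 1.3 µg of RNA and a kit that marks strand, per the labels' protocols. The deposited values are raw read counts per gene symbol, made by the authors with TopHat on mm10 per the submitters' processing notes. The TopHat version, the counter, the annotation and the strand setting: not given in the sources used here. The 10 genes and the 13 pathway lists were chosen with earlier results of these data known.

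Counts were tested with edgeR 4.0.16 (R 4.3.3) by the quasi-likelihood F test with robust dispersions, TMM scaling and filterByExpr (minimum count 10, minimum total 15), which kept 12226 genes. Benjamini-Hochberg adjusted p-values are over all of these, and those under 0.05 were called. The SE is the log2 fold change over the square root of F. With 3 libraries a side the smallest p of an exact permutation test is 0.1, so none was run. Library pairs differed beyond counting noise (chi-square per degree of freedom at least 5.03).

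Deviations of same-numbered libraries from their group means correlated at 0.413, 0.208 and 0.508 over the tested genes, each above the limit of 0.1, so the numbers were taken to pair the libraries, and values with the block are given where they change a call. The fit with group alone was tested on simulated data that held no effect of the library number. The blocked fit was not tested in this way. Lengths and positions are from GENCODE M21 (GRCm38), which matched 98.44% of symbols. At most 0.244% of the 50-base windows of a member's transcripts occur in another gene. Named genes are the 10, in each list those called in either fit, the 4 with the smallest p and the most abundant, Il9 and the 5 nearest to Crem (of those called in neither fit, examples are given). Alternatives were the block, DESeq2 1.42.0, other scalings and filters, no robust estimation and leaving out libraries, and, added after seeing the data, the longest transcript as length. Adora1, Adora3, Nr4a1, Pde4a and Pde4c fall outside this rule and were named after their values were seen. Irf4, Batf, Il4ra, Gata3, Cd5, Foxp3, Ikzf2, Il2ra, Ctla4, Zbtb46, Eomes, Cd79b, Cd68 and Adgre1 are from the marker lists.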

Additional observations from a re-analysis of the deposited data

How the results depend on the processing

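The fit with the replicate block called 866 of all tested genes, 6 of the 10 pathway genes and 23 list genes, DESeq2 279, 5 and 13, and the fit with no filter on low counts 147, 3 and 8, against 59, 1 and 2. The list genes here include the 10, which are thus counted in both. Outside the 10, the block called 6 list genes higher and 11 lower (14.8%), beside 7.08% of all tested genes. With the block the log2 fold changes that now passed were -0.44 (Adora2b), 0.45 (Nt5e), -1.03 (Crem), 0.52 (Pde4b) and -0.72 (Pde4d). Under DESeq2 they were 0.45 (Nt5e), -1.05 (Crem), 0.53 (Pde4b) and -0.73 (Pde4d), and with no filter -1.05 (Crem) and -0.72 (Pde4d). Values near 0 changed sign: Pde3b to -0.0064 with the block, and Gnai3 to 0.0086 with upper quartile factors, 0.0011 with no filter and 0.0013 at a minimum count of 50, where Entpd1 had no value. The cause was not tested.

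Leaving out libraries gave 6 to 66 calls over all genes, 0 to 3 of the 10 and 0 to 4 of the list genes. Without control library 2 or SPC library 2 there were 6 and none of the 10. With the block and both libraries of a number left out the calls were 563 to 2112, 4 to 6 and 18 to 45. Over both kinds of fit the log2 fold changes ranged from 0.87 to 1.10 for Adora2a, -0.50 to -0.41 for Adora2b, 0.34 to 0.59 for Nt5e, -1.20 to -0.83 for Crem, -0.82 to -0.61 for Pde4d and 0.43 to 0.68 for Pde4b. Those of the uncalled genes crossed 0: Entpd1 (-0.016 to 0.34), Ada (-0.11 to 0.061), Creb1 (-0.10 to 0.061) and Pde3b (-0.088 to 0.14), and, of list genes, Gnas (-0.044 to 0.080), Gnal (-0.14 to 0.16), Gnai3 (-0.042 to 0.035), Junb (-0.040 to 0.17), Enpp1 (-0.55 to 0.11), P2ry10 (-0.19 to 0.13), Pde7a (-0.12 to 0.051) and Prkar1a (-0.0088 to 0.070). Of the 10 genes Entpd1 had the fewest counts, 24 to 41 per library, and Adora1 and Adora3, with 0 to 8, could not be tested.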
